A study of Mus musculus with 8 samples.

Results

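Acetylated regions in gene deserts are stretches of chromatin carrying histone H3 acetylated at lysine 27 (H3K27ac) that lie far from any protein-coding gene. They were chosen by position. Overlapping or touching peaks of 4 H3K27ac peak lists were merged into 45700 regions on the 19 autosomes and the X chromosome. A merged region was kept where it was under 20 kb wide, held a peak of at least 2 lists, and lay 50 kb or more from the span of every protein-coding gene in a RefSeq table of the mm10 build (assembly GRCm38.p6). This left 2843 desert regions, out of 31096 merged regions that met the limits on width and number of lists. The other 28253 lay in or closer to a gene.

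The lists come from chromatin immunoprecipitation and sequencing (ChIP-seq) in mpkCCD cells, clone 11, a cultured line from the cortical collecting duct of the mouse kidney. Cells were grown to confluence on permeable supports, held in medium free of serum and hormones, and then given 0.1 nM dDAVP or its vehicle for 24 h. dDAVP is an analogue of vasopressin that is selective for the V2 receptor, and both groups share the line, the support and the medium. Each treatment has 2 libraries, numbered by experiment, and each immunoprecipitated library has its own input. Since all libraries come from 1 clonal line, and the labels give no more than the experiment number, p-values below measure the spread between these libraries. The cell type was checked at gene ends: 7 of 7 principal cell markers (Aqp2, Aqp3, Avpr2, Scnn1a, Scnn1g, Hsd11b2 and Gata3) had peaks in all 4 lists, and the intercalated cell markers Foxi1, Slc4a1 and Atp6v1g3 had none in any list. Umod, Slc12a1, Pecam1, Cdh5, Ptprc and Pdgfra had none either, nor did the proximal tubule genes Slc34a1 and Slc5a2. Against this, the proximal tubule gene Lrp2 had peaks in all 4 lists, the fibroblast gene Col1a1 in both lists of experiment 1, and the distal tubule gene Slc12a3 in dDAVP replicate 1.

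H3K27ac marks active promoters and active enhancers. Enhancers can act on a promoter over long distances through looping of the chromatin fibre, and the wide gaps beside genes for transcription factors and signalling proteins are known to hold many of them. Gene deserts also hold the start sites of long non-coding RNAs (lncRNAs) and microRNA genes, which have promoters of their own. Which gene a desert region acts on cannot be read from its position, and the genes named below are neighbours only.

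The peak lists differed in length, and dDAVP replicate 2 stood apart. Every set of 4 values below is in 1 order: dDAVP and then vehicle of experiment 1 (replicate 1), followed by dDAVP and vehicle of experiment 2 (replicate 2). The lists held 37232, 39741, 20122 and 29594 peaks on the chromosomes used. Their immunoprecipitated libraries held 27923780, 32705755, 31676748 and 31283282 kept tags, so the shortest list was not from the shallowest immunoprecipitated library. The inputs held 38291361, 35901413, 30753752 and 35142984 kept tags, so the shortest list did have the shallowest input. Every count below that depends on absence from a list depends on these lengths.

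The sequences below were chosen because they are the transcribed features of the deserts that carry H3K27ac. A group of 6 desert regions held 8 microRNA hairpins, and 5 of these regions were called in all 4 lists. Of all desert regions 41.3% were in all 4 lists, and of the 31096 merged regions that met the limits 52.1%. The 6 were also wide, with a median of 5170 bp against 2058 bp over all desert regions. Sequences are from the RefSeq tables of GRCm38.p6, 5′ to 3′, with the seed (bases 2 to 8) in capitals. miR-29a-3p and miR-29b-3p share the seed AGCACCA, and the other 5 have different seeds.
miR-29a-3p: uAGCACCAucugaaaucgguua
miR-29b-3p: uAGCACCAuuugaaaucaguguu
miR-30c-5p: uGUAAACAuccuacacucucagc
miR-125b-5p: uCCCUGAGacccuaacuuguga
miR-9-5p: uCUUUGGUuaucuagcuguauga
miR-802-5p: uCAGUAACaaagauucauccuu
miR-12196-3p: uCACAGGUgagcuagaaaguau

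The miR-29 pair came from neighbouring hairpins, Mir29a at chr6:31062660-31062747 and Mir29b-1 at chr6:31063023-31063093, inside 1 desert region of 6561 bp between Klf14 and Mkln1. miR-29 is known for lowering collagen and other matrix transcripts. That region was called in all 4 lists with the authors' folds of 2.69, 3.25, 2.84 and 2.49. A fold here is the authors' ratio of tag pileup to local background at the highest peak of the list in the region. Its percentile within the list was 35.0, 53.7, 9.76 and 7.24, so the region was low in both lists of experiment 2.

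Mir802, at chr16:93369720-93369816, lay in a region of 15112 bp in the gap between Runx1 and Setd4, 538 kb from Runx1. The folds were 5.77, 5.89, 4.17 and 5.93. This was the highest mean percentile of the 6 hairpin regions, 75.2. The region with the miR-12196 hairpin (Gm51276), between Slc45a1 and Errfi1, followed with a mean percentile of 70.2.

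Mir9-2 and the antisense hairpin Gm51268 shared a region of 4806 bp between Mef2c and Tmem161b, at chr13:83736028-83740833. miR-9 is best known from the nervous system. The folds there were 5.39, 5.30, 3.50 and 3.98. Mir125b-1 lay in a region within the span of Mir100hg, the host transcript of several microRNAs, with folds of 3.02, 3.12, 3.50 and 4.26. Mir30c-2 lay in the 1 hairpin region that was not in all 4 lists: both lists of experiment 1 called it, with folds of 2.78 for dDAVP and 2.44 for vehicle, and neither list of experiment 2 did. Mir30c-2 was chosen after its values were seen.

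Start windows of lncRNAs are shown for the highest-ranked desert region, at Dleu2, and for the single locus where a desert lncRNA start held the palindromic cAMP response element TGACGTCA, at Gm32287. Each window runs from 250 bases before to 50 after the annotated start. Capitals mark the motifs searched: TGACGTCA, the AP-1 site TGANTCA, the GATA site AGATAA and the TATA box TATAAA. Each was searched on both strands and counted on its own, and TGANTCA does not occur within TGACGTCA.
Dleu2 start, chr14:61682324-61682623, minus strand: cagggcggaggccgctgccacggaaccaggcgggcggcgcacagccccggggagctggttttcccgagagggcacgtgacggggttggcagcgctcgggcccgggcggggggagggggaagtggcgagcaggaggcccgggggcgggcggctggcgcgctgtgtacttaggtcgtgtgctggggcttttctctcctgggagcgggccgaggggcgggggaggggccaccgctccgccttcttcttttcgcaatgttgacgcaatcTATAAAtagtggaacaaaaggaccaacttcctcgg
Gm32287 upstream start, chr2:167777878-167778177, minus strand: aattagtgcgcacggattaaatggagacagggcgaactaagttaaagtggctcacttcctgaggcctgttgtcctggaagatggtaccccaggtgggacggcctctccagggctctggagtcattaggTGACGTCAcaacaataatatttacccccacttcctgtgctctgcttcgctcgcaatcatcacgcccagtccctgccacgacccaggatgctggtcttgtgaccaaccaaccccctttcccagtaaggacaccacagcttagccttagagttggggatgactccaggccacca
Gm32287 downstream start, chr2:167777365-167777664, minus strand: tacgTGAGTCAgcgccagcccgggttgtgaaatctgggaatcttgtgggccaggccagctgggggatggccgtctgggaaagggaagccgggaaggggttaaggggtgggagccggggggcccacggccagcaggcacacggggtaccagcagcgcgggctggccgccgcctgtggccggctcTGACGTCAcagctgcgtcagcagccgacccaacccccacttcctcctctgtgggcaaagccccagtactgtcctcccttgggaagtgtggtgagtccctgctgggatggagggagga

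Dleu2, the host transcript of a tumour suppressor microRNA pair, started inside the desert region with the highest mean percentile, chr14:61679730-61684859, between Kcnrg and Dleu7. Its folds were 10.3, 11.3, 8.59 and 13.4, and its lowest percentile in a list was 96.9. The Dleu2 window was 69.0% G and C, held 29 CpG dinucleotides, and carried TATAAA at 15 bases past the start. Over all 249 lncRNA starts in desert regions the median window was 49.7% G and C with 4 CpG dinucleotides, against 48.3% and 4 over all 11575 lncRNA starts and 52.7% and 7 over 32851 starts of any gene.

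The cAMP response element stood in 3 of the 249 desert lncRNA windows, 1.2%, beside 0.976% of all lncRNA windows and 1.79% of all start windows. These 3 windows hold 2 sites, since windows of Gm32287 and of the opposite-strand Gm14321 overlap: chr2:167777474-167777481 and chr2:167778042-167778049. Both sites lie in a desert region of 10802 bp between Cebpb and Ptpn1, 82.5 kb from Cebpb. The folds of that region were 7.25, 7.34, 7.65 and 7.94, and its covered width was 10802, 9273, 7897 and 9162 bp, so dDAVP was wider than vehicle in experiment 1 and narrower in experiment 2.

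TGANTCA stood in 14.5% of the desert lncRNA windows, 9.31% of all lncRNA windows and 7.81% of all start windows. TATAAA stood in 19.7%, 15.5% and 13.6%, and AGATAA in 10.4%, 14.0% and 11.2%, in the same order. A match is a run of letters, and binding was not measured.

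Desert regions were narrow and of modest height. Their width had a median of 2058 bp and ran from 267 to 18743 bp, beside a median of 2418 bp for the other regions. Most of those others, 21647, lay in a gene span and had a median of 2567 bp. Outside genes, the median was 1843.5 bp under 10 kb from a gene and 1983.5 bp at 10 to 50 kb. Desert regions were thus slightly wider than regions outside genes but nearer to them. They covered 8.03 Mb in all. The median desert region lay 111 kb from the nearest protein-coding gene. A set of 158 lay 500 kb or more away and 36 over 1 Mb.

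The 4 lists called 2531, 2748, 1280 and 2237 desert regions, which is 89.0%, 96.7%, 45.0% and 78.7% of them. Both lists of experiment 1 were near complete and dDAVP replicate 2 held fewer than any other list. The rule takes regions with a peak in 2 or more of these same lists. These shares, and the comparisons of lists below, thus depend in part on how the regions were chosen. For example, 568 regions were kept through both lists of experiment 1 alone. dDAVP lists held 1905.5 ± 884.6 desert regions (SD, n = 2) and vehicle lists 2492.5 ± 361.3 (SD, n = 2). The difference, vehicle minus dDAVP, was 587 (exact permutation test, two-sided, p = 0.667), with 217 in experiment 1 and 957 in experiment 2. The smallest p this design allows is 0.33, and without dDAVP replicate 2 the difference was -46 (exact permutation p = 1). With lists of equal length, each cut to its 20122 peaks of highest -log10 q-value (as many as the shortest list holds), it was 60 (exact permutation p = 0.33).

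Bases covered in desert regions were 5.81, 6.77, 2.13 and 4.60 Mb. The means were 3.97 ± 2.60 Mb with dDAVP and 5.68 ± 1.53 Mb with vehicle (SD, n = 2 each), a difference of 1.71 Mb (exact permutation p = 0.667). Vehicle was higher in both experiments, and the groups overlapped. Without dDAVP replicate 2 the difference was -0.131 Mb (exact permutation p = 1).

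Counted in peaks, the desert share of a list was nearly level in 3 libraries and higher in 1. The share of a list's peaks that fell in desert regions was 7.10% (95% Wilson interval 6.84 to 7.37), 7.14% (6.89 to 7.39), 7.16% (6.81 to 7.53) and 8.39% (8.08 to 8.71). These intervals cover counting error only. Vehicle minus dDAVP was 0.630 percentage points (7.76 ± 0.88 against 7.13 ± 0.04, SD, n = 2; exact permutation p = 0.667). Among the shares above, only that of vehicle replicate 2 stood apart. With a library left out, regions were merged and chosen again from the remaining lists, so the set of regions changed too. The difference was then -0.524 without vehicle replicate 2 (2515 regions) and -0.286 without dDAVP replicate 1 (2257 regions). These signs belong to the new sets and do not follow from the shares above. With lists of equal length it was 0.0621 (exact permutation p = 1).

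Counted in bases, the share of a list's covered sequence that lay in desert regions was 5.87%, 6.50%, 6.36% and 8.08%. Both vehicle lists stood above both dDAVP lists. The means were 6.11 ± 0.35% with dDAVP and 7.29 ± 1.12% with vehicle (SD, n = 2 each), a difference of 1.18 percentage points (exact permutation p = 0.33, the smallest this design allows). It was 0.633 in experiment 1 and 1.72 in experiment 2. This share was not among the planned comparisons. It was not recomputed with lists of equal length or with a library left out, settings under which the share of peaks fell or changed sign.

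**Figure D1:**
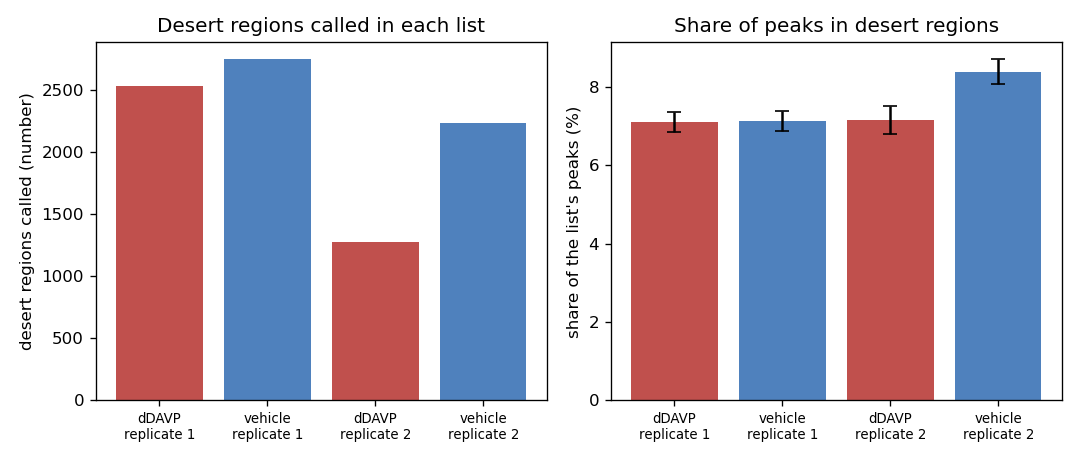
Number of desert regions called in each peak list (left) and the share of each list's peaks that lie in desert regions, in percent (right; bars are the 1 value of a list, error bars the 95% Wilson interval). dDAVP replicate 2 called 1280 regions, the fewest, while its share of 7.16% was close to those of both lists of experiment 1 and vehicle replicate 2 stood at 8.39%.

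In height, desert regions sat low in every list beside all regions of the same kind. Their median fold was 2.89, 3.06, 3.29 and 3.06, beside 3.38, 3.56, 4.05 and 3.90 over all regions of the same kind called in the list. In median percentile this was 44.7, 48.7, 30.5 and 37.4 beside 58.3, 59.7, 54.1 and 56.4. Regions above the 90th percentile of a list made up 1.58%, 1.67%, 1.56% and 1.70% of its desert regions and 12.2%, 12.5%, 11.2% and 11.8% of all its regions of this kind. With each region's percentile averaged over the lists that call it, the median was 37.3 for desert regions. It was 40.4 for regions under 10 kb from a gene, 40.1 at 10 to 50 kb and 54.1 in a gene span. Regions outside genes but nearer to them were thus also low, though less so. Ranks hold within a list and show no change between lists.

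A set of 1175 desert regions was called in all 4 lists, which is 41.3% of the 2843, against 52.1% of the 31096 regions of the same kind. A further 684 (24.1%, background 18.5%) were called in every list but dDAVP replicate 2. Both lists of experiment 1 and neither of experiment 2 called 568 (20.0%, background 23.5%), and the reverse held for 21 (0.739%, background 0.203%). By number of lists, 908 regions were in 2, 760 in 3 and 1175 in 4.

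Regions that separated the treatments in both experiments were few and uneven. Regions found with vehicle in each experiment and never with dDAVP, called vehicle-only below, numbered 250 (8.79%, background 3.70%). The reverse, dDAVP-only regions, numbered 4 (0.141%, background 0.0933%). With lists of equal length there were 1451 desert regions, of which 59 were vehicle-only (4.07%, background 1.88%) and 37 dDAVP-only (2.55%, background 1.05%), so the 2 counts lay closer together. At equal length 787 were in all 4 lists (54.2%, background 73.5%).

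**Figure D2:**
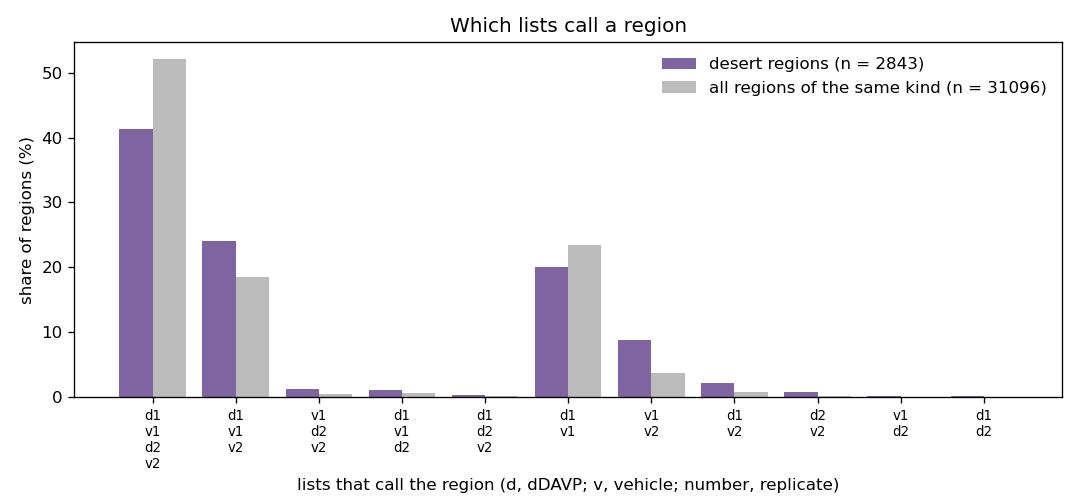
Share of regions, in percent, with each combination of lists that call them, for desert regions (purple) and all regions of the same kind (grey). Calls in all 4 lists take 41.3% of desert regions and 52.1% of all, and vehicle-only calls (v1, v2) take 8.79% and 3.70%.

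Desert regions are lower than others, so the patterns were also compared among regions of like rank. The bands, chosen after the data were seen, each take 25 steps of the percentile scale in vehicle replicate 1 and hold the regions that list called. In the band from 0 to 25, 6.76% of 562 desert regions and 2.74% of 3873 others were in all 4 lists, and 21.4% and 10.3% were vehicle-only. From 25 to 50, the shares in all 4 lists were 21.2% of 871 and 11.5% of 6502, and vehicle-only shares were 12.9% and 6.57%. From 50 to 75, 65.3% of 1031 and 60.1% of 8353 were in all 4 lists, and 1.75% and 0.874% were vehicle-only. From 75 to 100, 98.2% of 284 and 98.7% of 9258 were in all 4 lists, and no region of either kind was vehicle-only. Within each band below 75, desert regions thus had the higher share in both classes, whereas over all ranks they had the lower share in all 4 lists. In the lowest band, dDAVP replicate 1 also called 76.0% of desert regions and 88.7% of the others. For experiment 2 these shares were 11.2% and 4.60% in the dDAVP list and 53.9% and 28.2% in the vehicle list. Desert regions there had the lower share in dDAVP replicate 1 and the higher share in both lists of experiment 2.

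The 4 dDAVP-only regions were weak. The strongest, chr16:55575024-55577513 between Zpld1 and Nfkbiz, had folds of 3.02 and 3.03 in dDAVP replicates 1 and 2. A second, chr10:99940967-99942640, lay 73.0 kb from Kitl, the gene of stem cell factor, with folds of 2.94 and 2.65. The third lay between Adamts5 and N6amt1 with folds of 2.40 and 2.60. The last, between Tcp10c and Tcte2, had folds of 1.43 and 1.503 and stood at percentiles of 0.043 and 0.0099, the bottom of both lists.

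The vehicle-only regions with the highest smaller percentile reached the middle of their lists. The first, chr2:117909516-117912290 within the lncRNA gene Gm13986, lay 200 kb from Thbs1, which encodes thrombospondin 1, and had folds of 3.12 and 3.66 in vehicle replicates 1 and 2. The second lay between Zfp608 and Gramd3 with folds of 3.16 and 3.45. The others lay at the T-cell receptor alpha and delta locus near Dad1 (3.01 and 4.34), between Plk2 and Actbl2 (2.98 and 3.45), and between Serp2 and Lacc1 (3.11 and 3.35). As a class, vehicle-only regions had a median width of 1198 bp and a median percentile of 26.1 and 21.3 in vehicle replicates 1 and 2.

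Among the 1175 desert regions in all 4 lists, the bases covered by peaks could be compared within each experiment. They were higher with vehicle in both experiments in 734 (62.5%, background 51.2%) and higher with dDAVP in both in 68 (5.79%, background 4.84%). The median ratio of dDAVP to vehicle width was 0.907 in experiment 1 and 0.602 in experiment 2, beside 0.977 and 0.725 over all 16186 regions in 4 lists. The region with the largest smaller ratio towards dDAVP was chr10:111755890-111759575, between Phlda1 and Krr1, where dDAVP covered 3655 and 896 bp and vehicle 447 and 293 bp. It stood at a mean percentile of 16.3. Next came chr1:183761780-183766830 between Hhipl2 and 1700056E22Rik, with 5051 and 3115 bp under dDAVP and 3233 and 1841 bp under vehicle.

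Among desert regions, the share in all 4 lists was lower in each band farther from genes. It was 43.3% at 50 to 100 kb (1262 regions), 41.8% at 100 to 200 kb (902), 38.0% at 200 to 500 kb (521) and 33.5% at 500 kb or more (158). Vehicle-only shares over the same bands were 7.84%, 8.76%, 9.60% and 13.9%. For calls in all 4 lists, regions nearer to genes did not form 1 series with these. The share was 41.5% of 3614 at 10 to 50 kb, 38.7% of 2992 under 10 kb and 57.1% of 21647 in a gene span. Desert regions were thus close to other regions outside genes in this share. Vehicle-only shares were 6.50%, 5.25% and 2.34% in the same order, so they were lower in each band nearer to genes. The bands share the same 4 lists, and no test was made.

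**Figure D3:**
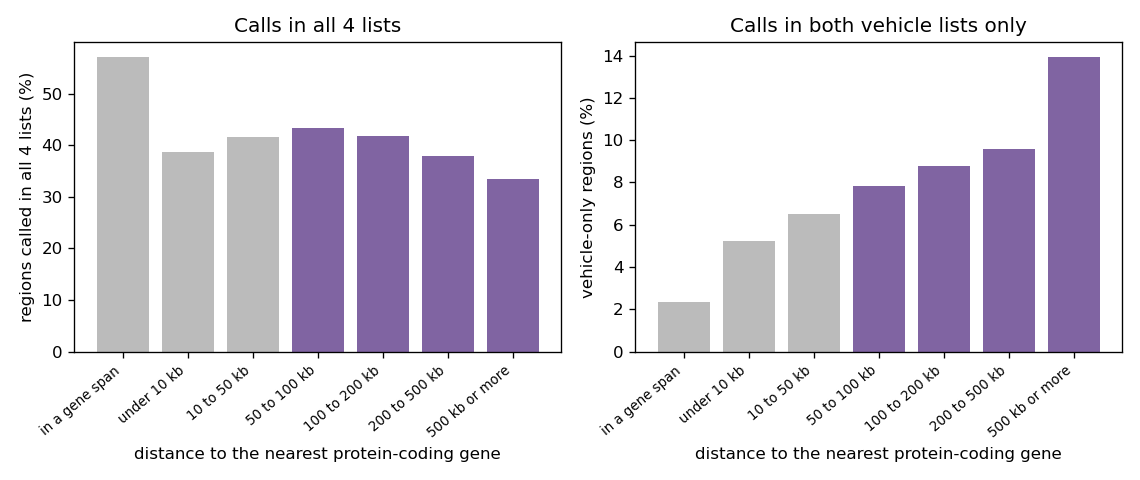
Share of regions called in all 4 lists (left) and called in both vehicle lists but no dDAVP list (right), in percent, by distance to the nearest protein-coding gene; purple bars are desert regions and grey bars other regions. From 50 kb outward the left share goes from 43.3% to 33.5% and the right share from 7.84% to 13.9%.

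The limit of 50 kb cuts through a continuous range. Just inside it lay regions 50.0 kb from Rassf8 (2 lists, mean percentile 44.8), 50.1 kb from Slc2a1 (2 lists, 34.0) and 50.1 kb from Nrep (3 lists, 49.1). Just outside lay regions 49.97 kb from Wnt7b (4 lists, 85.8), 49.9 kb from Foxo3 (3 lists, 19.7) and 49.9 kb from Apip (4 lists, 87.4). At the far end, the most remote region lay 2155 kb from Pcdh17, was called in both lists of experiment 1 and had folds of 2.37 and 2.68. The next, 267 bp within the pseudogene Tpm3-rs7 and 1632 kb from Slitrk5, was the narrowest desert region and was called in 3 lists. The third, 1513 kb from Rpia, lay in the immunoglobulin kappa locus and was vehicle-only.

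That locus shows a limit of the rule. Immunoglobulin and T-cell receptor loci are not classed as protein-coding in the gene table, and 15 desert regions lay in them: 5 in Igh, 6 in Igk, and 4 in Tcra, of which 3 were also in Tcrd. Of the 15, 4 were in all 4 lists and 6 were vehicle-only, which leaves 1171 and 244 outside these loci.

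Many of the strongest desert regions lay at lncRNA genes. Over all, 864 regions (30.4%) overlapped a lncRNA span, and 191 held the annotated start of at least 1 lncRNA (207 genes). Regions with a start were in all 4 lists in 126 of 191 cases (66.0%) and vehicle-only in 6 (3.14%). Regions inside a lncRNA but without a start were in all 4 lists in 43.8% of 673 cases, and regions in no RefSeq gene of any kind in 37.6% of 1893. Of the 19 desert regions with a mean percentile over 90, all were in 4 lists and 8 held a lncRNA start.

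After Dleu2, the second-ranked desert region was chr7:73603027-73620609 at Gm30149, between Chd2 and Fam174b, with folds of 9.72, 9.13, 11.1 and 14.9. It was 17583 bp wide. The third held the starts of Gm33929 and Gm34080, between Slc38a6 and Tmem30b, with folds of 11.5, 9.79, 8.11 and 9.40. The functions of these lncRNAs are not given here.

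The fourth region lay over Magef1, listed as a transcribed pseudogene in this table, between Ephb3 and Vps8, with folds of 11.1, 12.6, 6.75 and 11.5. The fifth lay in G730013B05Rik between Bbx and Ccdc54 (11.4, 10.2, 6.95 and 10.3). The sixth, chr15:8567974-8570310 between Slc1a3 and Nipbl, overlapped no RefSeq gene and had folds of 8.53, 8.43, 7.004 and 9.91. Nipbl encodes the loader of cohesin, the ring complex that shapes chromatin loops.

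Of the remaining 4 among the top 10, C130071C03Rik, 59.5 kb from the transcription factor gene Mef2c, had folds of 7.95, 7.44, 7.91 and 9.65, and the Mir9-2 region lay beside it. The others were in 8030442B05Rik near Prkcq and Pfkfb3 (6.89, 8.98, 6.85 and 11.5), at Gm34150 near Rnf19a (6.95, 8.58, 8.07 and 8.37), and between Vapb and Stx16 with no RefSeq gene (7.40, 8.63, 6.54 and 10.2).

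Desert regions gathered in few of the available gaps. The space between neighbouring protein-coding genes was over 100 kb, wide enough to hold a region by the rule, in 2768 places, and 789 of these (28.5%) held a desert region. The 61 gaps with 10 or more regions held 949, or 33.4% of all. The part of the gaps that lies 50 kb from both ends, called eligible here, came to 941 Mb, which gives 3.02 desert regions per eligible Mb. Of 281 gaps over 1 Mb, 157 (55.9%) held none, and the widest empty ones bordered Celf4 and Pik3c3 (4511 kb), Tenm3 and Aga (3989 kb) and the protocadherin gene Pcdh7 on both of its sides.

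The fullest gap was between Myc, the growth-control transcription factor, and Gsdmc, with 38 desert regions. The lists called 35, 36, 16 and 29 of them, and 16 were in all 4. Together with the gap on the other side of Myc, which held 11, this makes 49 regions around the gene, of which 16 lay within Pvt1, a long lncRNA gene next to Myc. The strongest of the 49, chr15:62200189-62213604, lay in Pvt1 at 210 kb from Myc, with folds of 5.50, 6.11, 6.08 and 8.31.

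The gap between Nmbr and Cited2, a gene for a transcriptional co-regulator, held 34 regions (32, 34, 17 and 25 per list; 16 in all 4). The gap between Adamts5 and N6amt1 also held 34 (27, 32, 13 and 24 per list), but 9 of these were in all 4 lists and 7 were vehicle-only. The gap of 465 kb between Serp2 and Lacc1 held 24 regions (21, 24, 10 and 24 per list), with 10 in all 4. Zeb2, which encodes a repressor of epithelial genes, shared with Acvr2a a gap of 3697 kb that also held 24 regions, 9 in all 4 lists. These lay from 1324 to 3589 kb from Zeb2. A cluster of 11 of them lay 3215 kb from Zeb2 and 344 kb from Acvr2a.

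Clusters were defined as chains of 3 or more desert regions with at most 25 kb between neighbours. There were 272, holding 1321 regions (46.5%), while 970 regions stood alone. Calls in all 4 lists took 46.1% of clustered and 37.5% of lone regions, and vehicle-only calls took 6.74% and 10.4%. The median of the mean percentile was 37.2 for clustered and 37.1 for lone regions, and the median width was 2407 bp and 1749 bp.

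The largest cluster filled the gap between Phlda1 and Krr1 on chromosome 10. It held 29 regions over 346 kb, with 75.9 kb of acetylated sequence in all. The lists called 28, 28, 14 and 20 of the 29, and 14 were in all 4. Covered width was 61.6, 67.2, 23.8 and 42.1 kb, and the highest fold of a peak in the cluster was 5.52, 6.78, 4.12 and 5.07. Phlda1 encodes a pleckstrin-homology domain protein linked to cell survival and growth. The region that was widest towards dDAVP in both experiments, given above, lay in the middle of this cluster, and the one next to it, at 260 kb from Phlda1, covered 255 bp with dDAVP and 3241 bp with vehicle in experiment 1 and was not called in experiment 2.

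**Figure D4:**
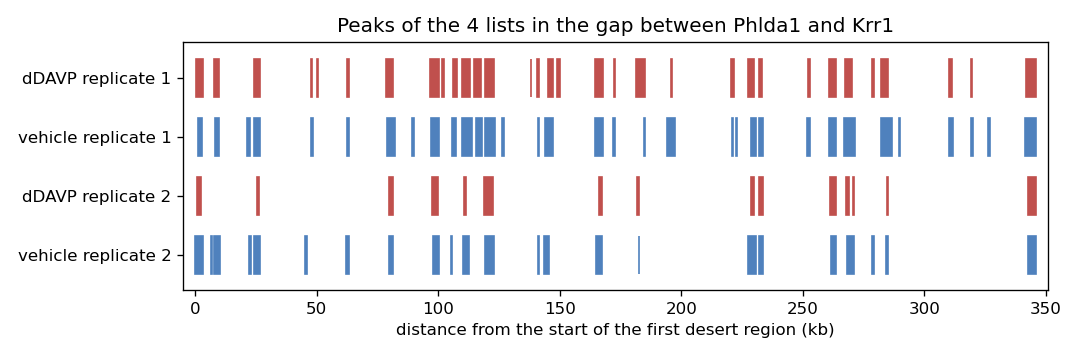
Peaks of the 4 lists in the cluster between Phlda1 and Krr1, by distance in kb from the start of its first desert region; each block is a peak drawn to its width. The lists cover 61.6, 67.2, 23.8 and 42.1 kb of the 346 kb from top to bottom, and dDAVP replicate 2 has the fewest peaks.

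The next largest clusters each held 18 regions. One lay between Rad51b and Zfp36l1, with 15, 18, 9 and 17 regions per list. The other lay between Irf2bp2 and Tomm20, with 16, 16, 8 and 16. Between Bcl2l11, which encodes the pro-apoptotic protein BIM, and Spdye4c there were 17 regions (16, 17, 10 and 15 per list). The fifth, of 14 regions, lay beside Id2, an inhibitor of basic helix-loop-helix factors, with 12, 14, 7 and 12 per list, and clusters of 14 also lay beside Serp2 and beside Car2, which encodes carbonic anhydrase 2. In these clusters dDAVP replicate 2 held the fewest regions.

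Desert regions were spread unevenly over chromosomes, from 0.411 per eligible Mb on the X to 5.71 on chromosome 16. Chromosome 18 held 64, of which 14 (21.9%) were in all 4 lists, the lowest share of any chromosome.

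To describe the neighbours by function, 7 gene lists were taken and, for each gene bordering a wide gap, the desert regions in its gaps were counted. Over all 4506 protein-coding genes that border such a gap, 1474 (32.7%) had a desert region there, 919 (20.4%) had one in all 4 lists, and the density was 3.02 per eligible Mb. Genes of a list can share a gap, and 1 region counts for both of its neighbours. The lists also differ in eligible gap per gene, with a median of 0.145 Mb over all genes. It was 0.347 Mb for nephric and collecting duct factors, 0.632 Mb for other developmental factors and 0.251 Mb for secreted ligands. Cell cycle genes had 0.195 Mb, cAMP signalling 0.126 Mb, and AP-1 and immediate early genes 0.140 Mb. Shares of genes with a desert region are not adjusted for this. The lists were chosen with earlier results of these data known. These are descriptions, and no test of a list was made.

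Transcription factors of the nephric and collecting duct lineage had desert regions beside 17 of 25 genes, 15 (60.0%, against 20.4% over all genes) with a region in all 4 lists, at 7.04 per eligible Mb. Sox4 had 23 regions, 12 in all 4 lists, of which the strongest lay 400 kb away with folds of 4.62, 5.37, 5.77 and 7.69. Klf5, an epithelial Kruppel-like factor, shared with Klf12 a gap of 15 regions (15, 15, 9 and 12 per list). Its strongest region, chr14:99576423-99586626, lay 263 kb from Klf5 and 280 kb from Klf12 and had folds of 6.98, 8.25, 6.81 and 8.55.

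Sox9, which acts in ureteric branching and in tubule repair, had 15 regions, and the strongest lay 311 kb away with folds of 7.01, 7.10, 5.43 and 8.26. Gata3, a master regulator of the nephric duct, had 9, of which 6 were in all 4 lists (8, 9, 6 and 9 per list). The nearest Gata3 region was 235 kb from the gene and the strongest 1124 kb away, with folds of 4.04, 5.19, 3.46 and 4.63. Grhl2, which maintains the collecting duct epithelial barrier, had 5 (5, 5, 3 and 4 per list), the strongest with folds of 6.91, 7.71, 4.25 and 7.16. Nr3c1, the glucocorticoid receptor gene, had 6, with 1 in all 4 lists, and Pax2 had 3, with 1 in all 4 lists.

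AP-1 and immediate early genes, which respond within minutes to many stimuli, had the highest density of the 7 lists, 14.4 per eligible Mb. A desert region lay beside 14 of 17 genes (82.4%, against 32.7% over all genes), and Atf3, Klf9 and Nr4a3 had none. Myc and Klf6 took most of the count, with 49 and 30. Cebpb had 14, all in a gap of 240 kb shared with Ptpn1 (13, 13, 7 and 11 per list). Jun, a subunit of AP-1, had 8 (7, 8, 6 and 8 per list), and the strongest overlapped the antisense gene Junos at 107 kb with folds of 3.89, 4.30, 5.85 and 6.77. Klf10 also had 8 (8, 8, 6 and 6), the strongest with folds of 5.47, 5.93, 4.81 and 7.44. Dusp5, Dusp6 and Gadd45a had 4 each, and Fos had 1.

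Among genes of cAMP signalling, the pathway downstream of the V2 receptor, 11 of 22 had a desert region, 6 (27.3%, against 20.4% over all genes) with a region in all 4 lists, at 4.30 per eligible Mb. Pde7a, a cAMP phosphodiesterase, had 5, and the strongest region there, chr3:19404552-19417059, covered 10655, 12508, 7833 and 9034 bp. Sik1, a kinase of the cAMP response, had 4, and the strongest had folds of 4.00, 5.23, 3.55 and 4.93. Creb1, the cAMP response element binding protein, had 5 with 1 in all 4 lists, the adenylyl cyclase gene Adcy8 had 5 with 0 in all 4, and Pde7b had 3. The covered width at that Sik1 region was 4788, 3547, 2114 and 3157 bp, so it was wider with dDAVP in experiment 1 and narrower in experiment 2, while the Pde7a region was narrower with dDAVP in both.

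Secreted ligands and their inhibitors had desert regions beside 28 of 44 genes (63.6%, against 32.7% over all genes), at 5.41 per eligible Mb. The Notch ligand gene Jag1 had 11, of which 1 was in all 4 lists (8, 11, 1 and 10 per list). Tgfb2 had 9 (8, 9, 3 and 9), Vegfa 8 (7, 8, 2 and 5), Wnt4 7 (7, 6, 1 and 5), and the endothelin gene Edn1 6 (6, 6, 2 and 4). In each of these 5 gaps dDAVP replicate 2 called the fewest. Fgf9 had 6, with 4 in all 4 lists, and its strongest region had folds of 6.74, 7.49, 5.56 and 6.46.

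Cell cycle genes had desert regions beside 5 of 7 genes (71.4%, against 32.7% over all genes). Their density was 3.62 per eligible Mb, near the 3.02 over all genes. Cdkn2b, a cyclin-dependent kinase inhibitor, had the most, 8 (8, 7, 4 and 8 per list). Ccnd1 and Ccnd2, both D-type cyclins, had 2 each.

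Other developmental transcription factors had desert regions beside 28 of 64 genes (43.75%, against 32.7% over all genes). Their density was 3.10 per eligible Mb, near that over all genes. Mycn had 15, Barx2 12 and Foxq1 8, of which 8, 6 and 6 were in all 4 lists. Neuronal adhesion genes, a list outside the known programme of an epithelium, had a desert region beside 21 of 48 genes (43.75%, against 32.7% over all genes). Of the 48, 10 (20.8%, against 20.4% over all genes) had a region in all 4 lists. Their density was 0.399 per eligible Mb, and they bordered a median of 2.59 eligible Mb per gene against 0.145 over all genes. Cntn5 and Lrrc4c had 9 each, and their nearest regions lay 497 kb and 1030 kb away.

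**Figure D5:**
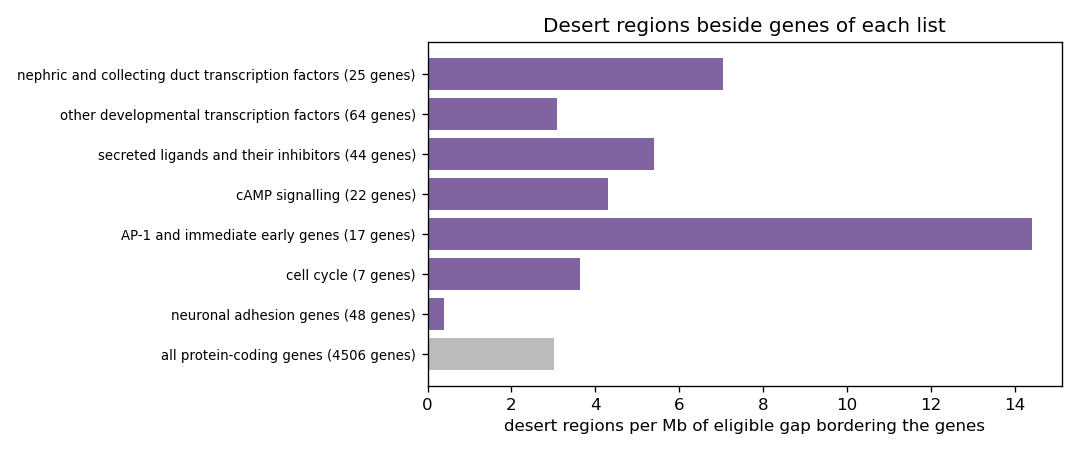
Desert regions per Mb of eligible gap beside the genes of 7 lists (purple) and beside all protein-coding genes (grey), with the number of genes that border a wide gap in brackets. AP-1 and immediate early genes stand at 14.4 and neuronal adhesion genes at 0.399, beside 3.02 over all genes.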

How the data were processed

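The 4 peak lists hold the authors' calls, 1 list per immunoprecipitated library against its own input, made with MACS 2.1.1.20160309 in broad mode per the file headers (q-value limits of 0.01 for strong and 0.1 for broad regions). Per the submitters' processing notes, BWA, SAMtools and the mm10 build were used. The deposited pileup is a signal of tag coverage, and the deposited fold is the authors' ratio of it to local background. The column names of -log10 q-value and -log10 p-value were lost from the deposited lists, and order and values identified them. Peak names in both lists of experiment 2 carry another experiment number, and the headers were followed.

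Headers give 27923780 to 32705755 kept tags per immunoprecipitated library and 30753752 to 38291361 per input. Peaks on the Y chromosome and unplaced scaffolds (62 in all) were left out. Merging, distances, gaps, clusters and counts were computed in Python 3.11.15 with pandas 2.3.3 and numpy 2.4.6 and were tested on simulated intervals. A list calls a region when any of its peaks lies in it. Percentiles are of the fold within a list. Values per list were compared between treatments with two-sided exact permutation tests.

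The gene table gives no strand, so cell type markers were read within 1 kb of either end of a gene. Members and gene lists were chosen with earlier results of these data known. The gene lists held 2 genes under 2 names each, counted once. Regions were named by rule: the 10 with the highest mean percentile in all 4 lists, the dDAVP-only regions and the 5 vehicle-only regions with the highest smaller percentile, the 5 fullest gaps and clusters, the 3 farthest from genes, the 3 on each side of the limit, listed genes with 2 or more regions, and non-coding genes in regions of all 4 lists. Other regions and genes were named after their values were seen. Region sequences were not used here, as no genome was at hand. Alternatives were a -log10 q-value of at least 5, lists of equal length, 50% coverage, 100 kb from genes, wider gaps in clusters, merging over 1 kb, other gene sets, 3 lists, a replicate block and leaving out each library.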

Additional observations from a re-analysis of the deposited data

Results flagged for a closer look

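Some peaks lay outside the chromosomes used, on the Y chromosome or unplaced scaffolds. In experiment 1 there were 25 with dDAVP and 15 with vehicle, and in experiment 2 there were 7 with dDAVP and 15 with vehicle. These calls enter no comparison here and are given as counts, with no test. With 2 libraries per group no search for an outlying library can be made.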

How the results depend on the processing

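Of 116 values under alternatives, 77 are counts within 1.5 times the reported count (43) or differences of the same sign (34), 34 are counts that moved further, and 5 are differences that changed sign. Of the 34 differences, 19 moved by over 1.5 times. Some of the 77 could not change by their construction. The replicate block leaves each difference as it is. Requiring 3 or more lists leaves the regions in all 4 lists, and those wider with dDAVP, as they are. Requiring a -log10 q-value of at least 5 left 752 desert regions, 312 in all 4 lists, 1 dDAVP-only, 117 vehicle-only, 30 wider with dDAVP in both experiments, 30 clusters and 387 gaps. Lists of equal length left 1451 regions, 37 dDAVP-only, 59 vehicle-only and 98 clusters, with differences of 60 regions, 1.02 Mb and 0.0621 percentage points. With every RefSeq gene as a boundary the covered bases differed by 0.380 Mb. Requiring 50% of a region to be covered left 333 in all 4 lists, 7 dDAVP-only and 30 wider with dDAVP. At 100 kb from genes there were 1581 regions, 628 in all 4 lists, 151 vehicle-only, 31 wider with dDAVP, 156 clusters and 412 gaps. With every RefSeq gene as a boundary there were 535 regions, 194 in all 4 lists, 0 dDAVP-only, 73 vehicle-only, 9 wider with dDAVP, 36 clusters and 288 gaps. Requiring 3 or more lists left 166 clusters and, by its construction, 0 dDAVP-only and 0 vehicle-only regions, and turned the difference in the share of peaks to -0.0490 percentage points (exact permutation p = 1).

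With 1 library left out, the difference in regions called ranged from -46 to 922.5, in covered bases from -0.131 to 3.21 Mb and in the share of peaks from -0.524 to 1.10 percentage points (exact permutation p from 0.33 to 1). Each time, regions were merged and chosen again from the remaining lists, so these values reflect a changed set of regions as well as the missing library. The sign turned without dDAVP replicate 2 for the first pair, and for the share of peaks without dDAVP replicate 1 (-0.286) or vehicle replicate 2 (-0.524). The difference in regions called was 922.5 without dDAVP replicate 1 and 373.5 without vehicle replicate 1. Covered bases differed by 3.21, 0.697 and 2.58 Mb without dDAVP replicate 1, vehicle replicate 1 and vehicle replicate 2, and the share of peaks by 1.10 points without vehicle replicate 1. Without dDAVP replicate 1, 956 regions were in both vehicle lists and not in the other dDAVP list. Without vehicle replicate 1 there were 36 and without vehicle replicate 2 there were 13 in both dDAVP lists and not in the remaining vehicle list. Regions in all 3 remaining lists numbered 1213 without vehicle replicate 2 and up to 1858 without dDAVP replicate 2. A class that needs a list left out gave no value. With the replicate block (pairs by experiment), the difference of 587 regions, 1.71 Mb and 0.630 percentage points had an exact permutation p of 0.5 each, the smallest that 2 pairs allow. The cause of these changes was not tested. Absence from a list does not show that a region lacks the mark.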
